A study of Mus musculus with 4 samples.

Results

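The genes examined here are 8 transcription factor genes of the neural plate and neural tube, Sox1, Sox2, Sox3, Gbx2, Nkx6-1, Pax6, Irx3 and Olig2, taken by gene name from the non-control probes of each array. They were read by 12 probes, and 4 of the 8 (Gbx2, Sox2, Nkx6-1 and Sox1) gave enough signal to be tested, against 14874 tested of the 27573 gene names on the array. The tissue was the posterior part of mouse embryos at 5 to 6 somites, cut at the level of the last somite boundary. Cdx2+/- Cdx4-/- embryos, which carry 1 wildtype allele of Cdx2 and lack Cdx4, were compared with wildtype embryos, with 10 embryos pooled for each genotype. Both RNAs were hybridised together, in the dyes Cy5 and Cy3, on 4 Agilent whole mouse genome arrays, named by their labels as replicate 1, its dye swap, replicate 2 and its dye swap, and numbered 1 to 4 here in that order. Strain, allele structure and embryo sex are not given in the sources used here. The sources do not say whether each replicate had its own pool of embryos. The p-values rest on the spread between the 2 labelled replicate means, moderated by that of all tested probes. That spread may be technical, and the spread between the arrays of 1 replicate does not enter it.

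Sox1, Sox2 and Sox3 are the SoxB1 factors, which mark neural progenitors and hold them undifferentiated, and Sox2 is also found in the axial progenitors of the tail end that feed both spinal cord and mesoderm. Gbx2 is a homeobox factor of the posterior neural plate and anterior hindbrain, where it opposes Otx2 at the midbrain-hindbrain boundary. Nkx6-1, Olig2, Pax6 and Irx3 divide the neural tube along its dorsoventral axis: Nkx6-1 marks ventral progenitors, Olig2 the progenitors of motor neurons, and Pax6 and Irx3 more dorsal domains. Cdx2 and Cdx4 are caudal homeobox factors that act in axis extension and on the Hox genes.

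The promoters of the 3 genes that passed the test are shown because they moved together and because Cdx factors bind AT-rich sites built around the core TTTAT. Each window holds 250 bases before and 50 after the start site, 5′ to 3′ on the gene's strand, from RefSeq (GRCm38.p6). Gbx2 lies at chr1:89931127-89931426 on the minus strand, Sox2 at chr3:34649745-34650044 on the plus strand and Nkx6-1 at chr5:101664662-101664961 on the minus strand. Capitals mark TTTAT read on either strand.
Gbx2: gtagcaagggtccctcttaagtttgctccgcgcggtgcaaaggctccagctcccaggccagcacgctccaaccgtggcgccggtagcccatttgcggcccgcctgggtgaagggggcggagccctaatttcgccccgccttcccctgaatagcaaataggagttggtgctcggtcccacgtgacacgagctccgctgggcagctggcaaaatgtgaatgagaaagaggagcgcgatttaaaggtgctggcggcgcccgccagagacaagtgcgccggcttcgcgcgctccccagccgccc
Sox2: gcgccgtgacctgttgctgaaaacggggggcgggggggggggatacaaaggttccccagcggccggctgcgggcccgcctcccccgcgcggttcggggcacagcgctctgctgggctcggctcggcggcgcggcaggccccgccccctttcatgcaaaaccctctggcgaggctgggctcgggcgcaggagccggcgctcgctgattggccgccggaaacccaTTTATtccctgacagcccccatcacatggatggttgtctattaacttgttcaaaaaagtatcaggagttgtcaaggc
Nkx6-1: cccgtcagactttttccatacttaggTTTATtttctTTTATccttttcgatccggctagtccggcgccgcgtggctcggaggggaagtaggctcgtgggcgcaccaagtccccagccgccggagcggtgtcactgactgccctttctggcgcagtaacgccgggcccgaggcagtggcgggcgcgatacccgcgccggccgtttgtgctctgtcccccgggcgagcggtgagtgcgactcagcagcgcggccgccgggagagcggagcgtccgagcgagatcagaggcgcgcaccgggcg
The core stood once in the Sox2 window, 27 bases before the start site, and at 2 places in the Nkx6-1 window, 224 and 214 bases before it. None lay in the Gbx2 window. RefSeq entries matched 7 of the 8 genes, with 8 windows, and 4 of those 8 windows held the core, against 40.01% of all 32851 mouse windows of the same length. The GC content was 64.7% for Gbx2, 66.3% for Sox2 and 67.3% for Nkx6-1, against a median of 52.7% over all windows. A match of 5 letters is a description of the sequence and not a binding site.

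The direction of every ratio was set by Cdx4 and matches the labels of only 2 arrays. Cdx4, whose probe lies at chrX:99532694-99532753 (mm8, the build named in the scanner files), was brighter in Cy3 on arrays 1 and 2 and in Cy5 on arrays 3 and 4, although the labels swap the dyes between arrays 1 and 2 and between arrays 3 and 4. Arrays 1 and 3, which carry the same labelled dyes, correlated at r = -0.36 over all probes, and arrays 2 and 4 at r = -0.38. The arrays were therefore turned so that the Cdx4 ratio is negative on each, and all signed values that follow are these aligned log2 ratios. Their sign is Cdx2+/- Cdx4-/- over wildtype by the labels of arrays 1 and 4. The labels of arrays 2 and 3 give the opposite sign to every value, Cdx4 and Cdx2 included. Cdx4 would then be the higher in embryos that lack it, and Cdx2 the higher in embryos with 1 wildtype allele of it. After turning, arrays 1 and 2 both carry the mutant in Cy5 and arrays 3 and 4 both in Cy3, so dye orientation and labelled replicate cannot be told apart.

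Gbx2 showed the largest ratio of the group. Its probe, at chr1:91759609-91759668 on the minus strand (mm8), had normalised signals of 1869.8, 2073, 2198 and 2267 on arrays 1 to 4 in the Cdx2+/- Cdx4-/- channel, against 1229.6, 1280.2, 1214 and 1290.3 in the wildtype channel. Every mutant value lay above every wildtype value. The share of all tested genes separated in this way was not counted, so the lack of overlap is only a description, here and for the genes below. The log2 ratios were 0.60, 0.70, 0.86 and 0.81, with replicate means of 0.65 and 0.83. Gbx2 rose 1.67-fold, a log2 ratio of 0.74 ± 0.10 (moderated SE, n = 2 labelled replicates; limma adjusted p = 0.000117), and stood at place 75 of the 14874 tested genes by size of change in either direction. A probe for the transcript AK051578, also listed under the name Gbx2, lies at chr1:91763682-91763741 on the opposite strand, and was not well above background on any array in either genotype.

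Sox2 rose as well. Its probe (chr3:34843400-34843459, plus strand) gave 673, 677, 641 and 606 on arrays 1 to 4 in the mutant channel, against 455, 490.1, 419 and 451 in the wildtype channel. The genotypes did not overlap. The ratios of 0.57, 0.47, 0.61 and 0.43 averaged 0.52 in both labelled replicates. This is a 1.43-fold increase (log2 0.52 ± 0.09, moderated SE, n = 2; limma adjusted p = 0.00244).

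Nkx6-1 gave a change of similar size. Signals of its probe (chr5:101899606-101899665, minus strand) were 463, 422, 439 and 429.8 in the mutant channel, against 292, 330.0, 296 and 323 in the wildtype channel, again without overlap. Arrays 1 and 3 gave the wider ratios, 0.66 and 0.57, and arrays 2 and 4 the narrower ones, 0.35 and 0.41. The mean corresponded to a 1.41-fold increase (log2 0.50 ± 0.09, moderated SE, n = 2; limma adjusted p = 0.00317). Without array 1 the calls of Nkx6-1 and Sox2 ended, with log2 ratios of 0.42 (adjusted p = 0.0976) and 0.49 (adjusted p = 0.0595) in limma. In that setting 0.592% of all tested genes were called higher, against 2.9% with all 4 arrays.

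Sox1, a SoxB1 gene whose expression begins as the neural plate forms, did not pass. Its probe (chr8:12397092-12397151, plus strand) read 184, 188, 208 and 210.0 in the mutant channel, against 182, 188, 174 and 188 in the wildtype channel. The genotypes overlapped. The ratios were near 0 on arrays 1 and 2 (0.01 and 0.00046) and reached 0.26 and 0.16 on arrays 3 and 4, a mean of 0.11 ± 0.10 (moderated SE, n = 2; limma adjusted p = 0.658). Sox1 was well above background on 4 arrays in the mutant channel and on 3 in the wildtype channel, and entered the test through the mutant channel alone.

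**Figure D1:**
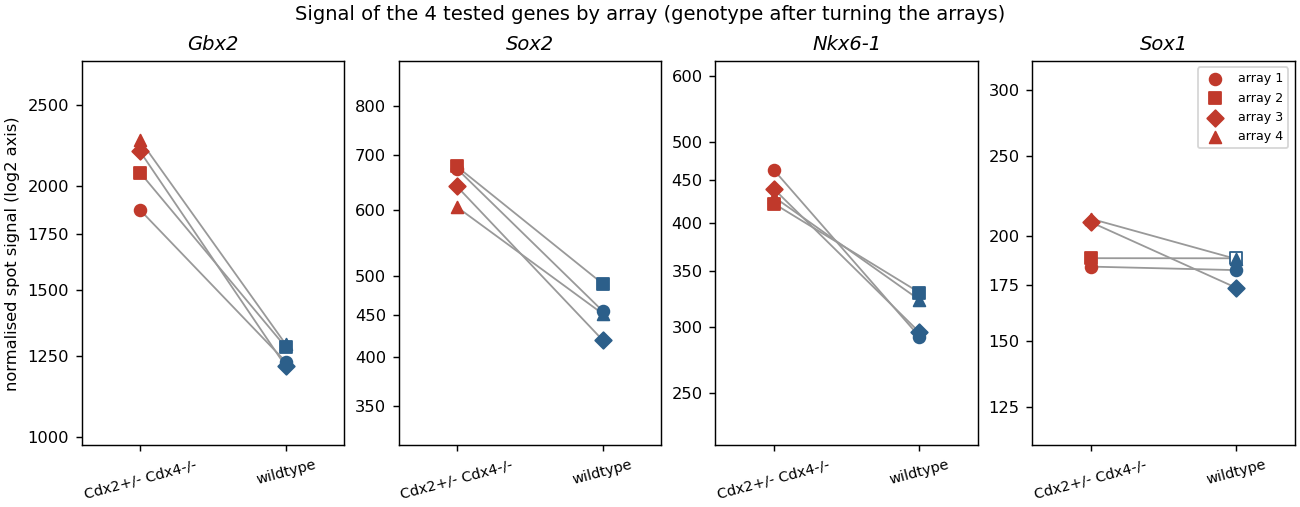
Normalised spot signal (log2 axis) of Gbx2, Sox2, Nkx6-1 and Sox1 in the Cdx2+/- Cdx4-/- channel (red) and the wildtype channel (blue), with a line joining the channels of 1 array and an open symbol where the spot was not well above background. Mutant values lie above wildtype values on every array for Gbx2, Sox2 and Nkx6-1, in the orientation that makes Cdx4 lower in the mutant, while those of Sox1 overlap.

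The other 4 genes were too dim for a test, which leaves their difference undetectable here rather than absent. Sox3, the X-linked SoxB1 gene (chrX:57152872-57152931, minus strand), was well above background on 1 array in the mutant channel and on none in the wildtype channel, with ratios of -0.05 to 0.19. Irx3 (chr8:94687988-94688047, minus strand) was above background on no array in either genotype, and its mean spot signals were 91.6 to 96.1 in Cy5 and 86.6 to 93.1 in Cy3. Of the probes of Olig2 (chr16:91115729-91115788 and chr16:91117084-91117143, plus strand), the first was above background nowhere and the second on 1 array, in the wildtype channel. These ratios compare signals close to background and carry no direction.

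Pax6 was read by 3 probes on chromosome 2, plus strand, and its detection differed by dye. The probe at chr2:105497959-105498018 and the 1 annotated to span chr2:105496273-105497145 were each well above background on 2 arrays in the mutant channel and 3 in the wildtype channel. By dye, both were above background on 4 arrays in Cy5 and on 1 in Cy3. The second of them was printed in 10 spots, of whose 40 readings 37 were above background in Cy5 and 11 in Cy3. The third probe, annotated to span chr2:105484780-105485631, was above background on no array. The ratios of the first were -0.20, -0.01, -0.19 and -0.19 and those of the second -0.02, -0.01, -0.01 and -0.09. Neither probe met the rule for testing.

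**Figure D2:**
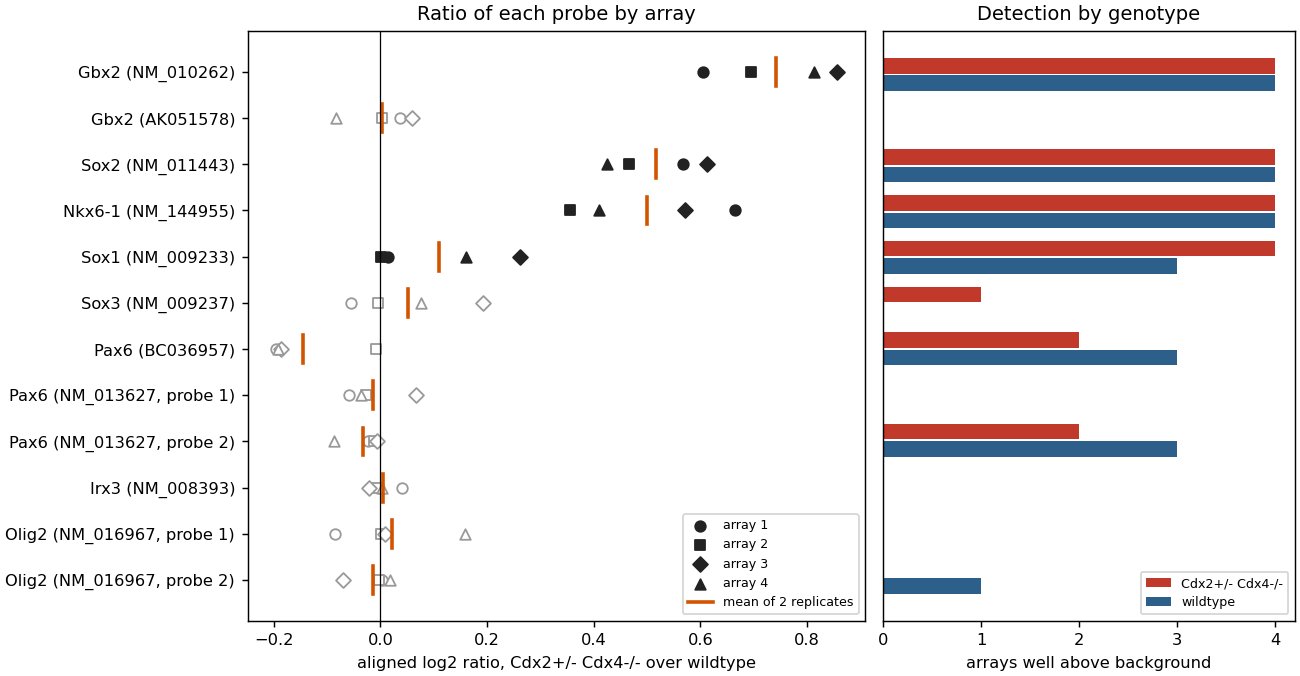
Left, aligned log2 ratio of Cdx2+/- Cdx4-/- over wildtype for the 12 probes on arrays 1 to 4, with filled symbols for tested probes and an orange bar at the mean of the 2 labelled replicates. Right, number of arrays on which each probe was well above background in the mutant (red) and wildtype (blue) channel: 4 of the 12 probes were tested, and 3 of these lie to the right of 0.3 on all arrays.

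As a group, 3 of the 4 tested genes rose and 0 fell, or 0 rose and 3 fell with the sign turned. Over all tested genes the same fit called 432 higher (2.9%) and 578 lower (3.89%). The median log2 ratio of the 4 was 0.51, beside 0.02 over all tested genes, and of all tested genes 24.8% were above 0 and 19.6% below 0 on all 4 arrays. If instead the labels of 2 arrays were exchanged, the replicates are array 1 with array 3 and array 2 with array 4. That pairing also called 3 of the 4 higher and 0 lower, but on a background of 21.6% of all genes higher and 18.7% lower. Sox1 missed the threshold in it as well (limma adjusted p = 0.0843).

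The size of the ratios depended on the correction for dye on all 4 arrays. For Sox2 the sign of the ratio on arrays 3 and 4 depended on it too. Before background correction and normalisation the spots of Sox2, Nkx6-1 and Sox1 were brighter in Cy5 than in Cy3 on all 4 arrays. Their local background was higher in Cy5 as well. For Sox1 on array 3 the mean signals were 138.4 in Cy5 and 134.0 in Cy3, over backgrounds of 81 and 56. With background subtracted, Cy3 was the brighter for Sox1 and Nkx6-1 on arrays 3 and 4, and Cy5 for Sox2. On array 1 the Sox2 mean signals were 695 in Cy5 (mutant) and 339 in Cy3 (wildtype), and its log2 ratio after loess was 0.57. On array 3, where Cy3 holds the mutant after turning, they were 445 in Cy3 (mutant) and 471 in Cy5 (wildtype). Gbx2 on the same array had 1578 in Cy3 (mutant) and 1527 in Cy5 (wildtype). The scanner's own dye-normalised log2 ratios of Cy5 over Cy3 were 0.81, 0.75, -0.76 and -0.58 for Sox2 on arrays 1 to 4, which changes sign with the turning. For Sox1 they were 0.01, 0.23, -0.64 and -0.63. From those scanner values, the mean aligned ratio was 0.93 for Nkx6-1, against 0.50 after loess. The scanner values also differ from the main fit in the handling of background. With loess kept, Nkx6-1 was at 0.60 with an offset of 0 and at 0.62 without background correction.

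**Figure D3:**
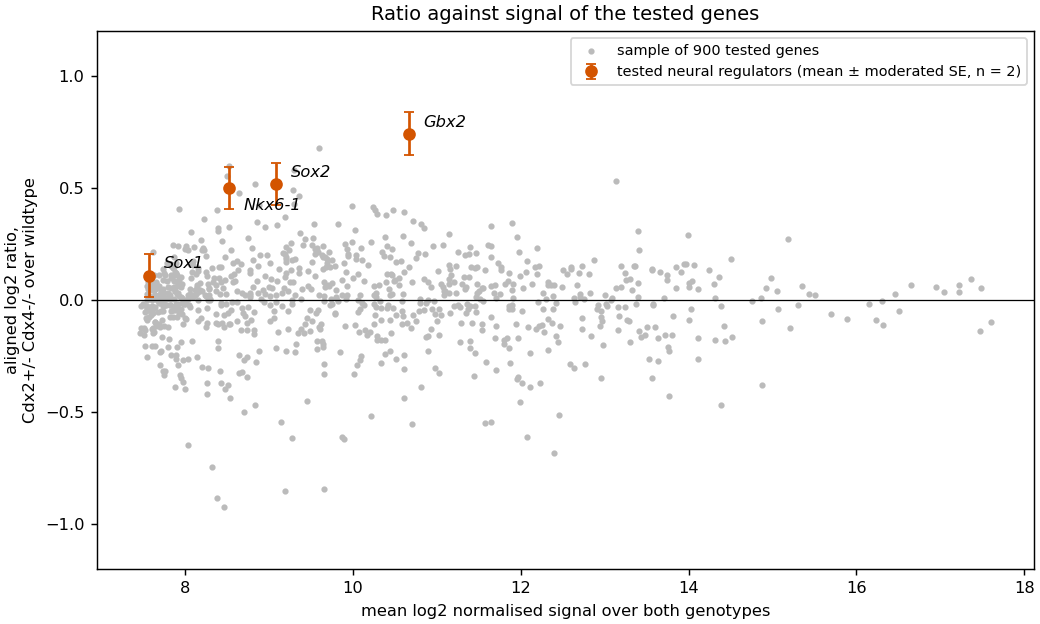
Aligned log2 ratio of Cdx2+/- Cdx4-/- over wildtype against the mean log2 normalised signal over both genotypes, for the 4 tested genes (orange, mean ± moderated SE, n = 2) and a random draw of 900 tested genes (grey). Gbx2, Sox2 and Nkx6-1 sit at 0.50 to 0.74, and Sox1 at 0.11 lies near the dim end of the axis.

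The genes with the most similar course over the arrays were found by Euclidean distance of their 4 ratios from the group's median profile of 0.59, 0.41, 0.59 and 0.42. The 5 nearest were Calca (distance 0.0948, mean log2 ratio 0.53), which encodes calcitonin and its related peptide, 2610301B20Rik (0.116, 0.46), Adi1 (0.123, 0.51), an enzyme gene of methionine salvage, Dynlrb2 (0.124, 0.52), a dynein light chain gene, and Slc2a4 (0.130, 0.52), which encodes a glucose transporter. All 5 distances are over 4 hybridisations of 1 comparison.

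A wider set of 84 neural genes, grouped by role, held 50 tested genes, of which 9 rose, 1 fell and 40 were not called (1 higher and 9 lower with the sign turned). Their median log2 ratio was 0.09, beside the 0.02 over all tested genes. In the pairing of arrays 1 with 3 and 2 with 4, 23 were higher and 2 lower, on the background of 21.6% higher and 18.7% lower given above. The number called, 10 in all, was 2 without array 1 and 5 without array 3. Of all tested genes, 0.592% were higher and 0.511% lower without array 1, and 1.89% and 2.14% without array 3. With all 4 arrays these shares were 2.9% and 3.89%.

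Among neural progenitor genes, 14 of 19 were tested, 2 rose and 0 fell, with a median of 0.12. Both are Hes genes, which encode repressors that keep progenitors from differentiating: Hes5, a Notch target, was at 0.46 ± 0.10 (moderated SE, n = 2; limma adjusted p = 0.00667) and Hes3 at 0.40 ± 0.10 (adjusted p = 0.0222). Hes5 signals ranged from 2770.1 to 3228 in the mutant channel and from 2094 to 2287 in the wildtype channel, without overlap. The remaining 12 tested genes had ratios from -0.10 to 0.22, the SoxB1-related Sox21 at 0.07 and Nes, the nestin gene of neural progenitors, at 0.08 among them.

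Of the genes that pattern the neural tube along the dorsoventral axis, 12 of 20 were tested, and 1 rose. This was Irx2, an Iroquois homeobox gene and relative of Irx3, at 0.34 ± 0.10 (moderated SE, n = 2; limma adjusted p = 0.0420), with its other probe also at 0.34. Nkx6-2, the closest relative of Nkx6-1, was at 0.20 (adjusted p = 0.276), and Shh, the ventral signal of notochord and floor plate, at 0.16 (adjusted p = 0.427). Neither passed the threshold. The untested genes were Dbx1, Dbx2, Irx5, Nkx2-2, Nkx2-9, Olig1, Pax3 and Pax7.

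Regulators of forebrain, midbrain and hindbrain were mostly dim in this posterior tissue, with 5 of 15 tested and 0 called by limma in either direction. The untested genes included the forebrain and midbrain factors Otx2, Six3, Hesx1 and Rax. Gbx1, the closest relative of Gbx2, was at 0.25 (adjusted p = 0.149), and 2 of the 5 were called higher in the pairing of arrays 1 with 3 and 2 with 4, where 21.6% of all tested genes were.

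Of 18 neurogenesis genes 8 were tested, 2 rose and 0 fell. Tubb3, a neuronal tubulin gene, was at 0.45 ± 0.09 (moderated SE, n = 2; limma adjusted p = 0.00705) and Stmn2, a stathmin gene of growing neurites, at 0.37 ± 0.09 (adjusted p = 0.0250). The proneural gene Neurog1 was at -0.04 and the motor neuron gene Isl1 at -0.17, and neither was called. The other 10 were too dim to test, Neurog2 and Neurod1 among them.

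Of 12 genes for signals that reach the neural plate 11 were tested, 4 rose and 1 fell. The list holds retinoic acid, Wnt, FGF and BMP genes. Crabp2, a retinoic acid binding protein gene, had signals of 768, 696, 806 and 808 in the mutant channel, against 507, 482, 417 and 440.5 in the wildtype channel. The genotypes did not overlap, and the ratio was 0.74 ± 0.10 (moderated SE, n = 2; limma adjusted p = 0.000216). Aldh1a2, the enzyme gene of retinoic acid synthesis, was at 0.47 (adjusted p = 0.00556) and Rarb, a retinoic acid receptor gene that is itself a target, at 0.40 (adjusted p = 0.0149). Cyp26a1, whose product degrades retinoic acid in the tail end, fell to 2431, 2859.7, 2889 and 2974 in the mutant channel, against 4350.0, 4379, 4347 and 4347 in the wildtype channel (log2 -0.65 ± 0.10, moderated SE, n = 2; limma adjusted p = 0.000407). Wnt3a, which keeps axial progenitors, was at 0.34 (adjusted p = 0.0371). Crabp1, a second retinoic acid binding protein gene, was at 0.17 (adjusted p = 0.383) and was not called. Fgf8, Bmp4, Bmp7, Chrd and Nog lay between -0.04 and 0.07 and were not called either.

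**Figure D4:**
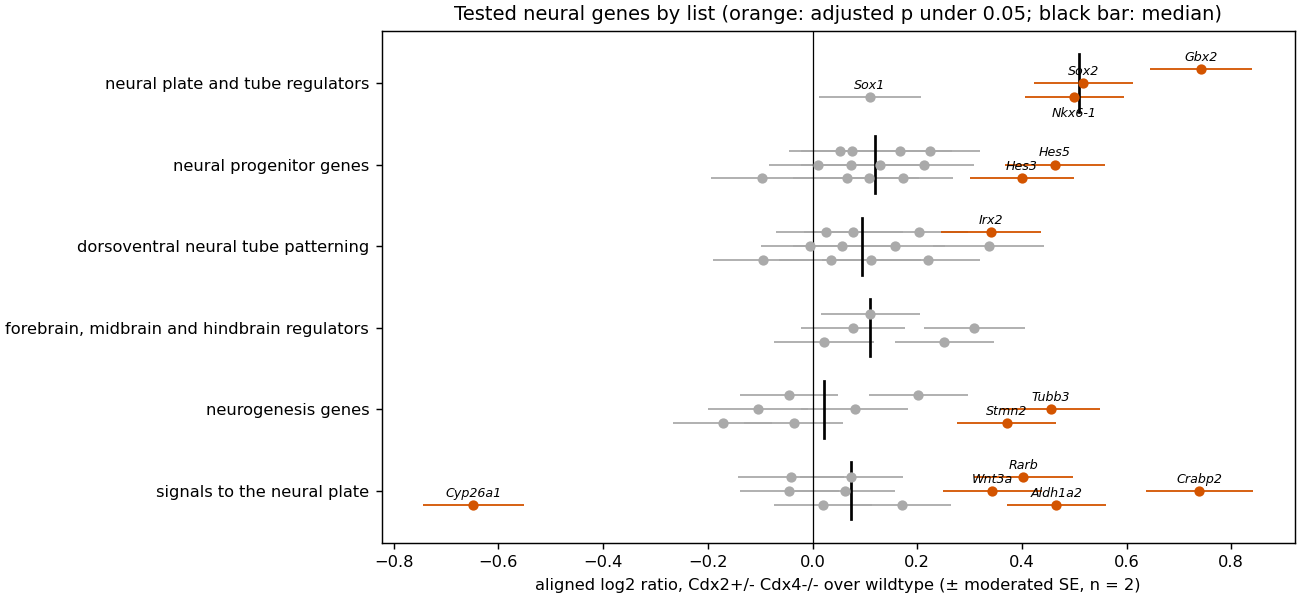
Aligned log2 ratio of Cdx2+/- Cdx4-/- over wildtype for the tested neural regulators and the other tested neural genes by role (± moderated SE, n = 2), with called genes in orange and each list's median as a black bar. The median of the 4 regulators is 0.51 and those of the other lists lie between 0.02 and 0.12.

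Markers of other cell types were read in the same hybridisations. In a pooled tissue, more cells of a type and more RNA per cell cannot be told apart. All 11 genes of the posterior growth zone were tested. So were all listed genes of extraembryonic visceral endoderm, endothelium and gut endoderm, and being tested therefore does not identify the tissue. Of the 11 growth zone genes, 2 rose (Fgf17 at 0.37 and Wnt3a) and 1, Cyp26a1, fell. Their summed signal was 32848 to 35819 in the mutant channel and 32537 to 33401 in the wildtype channel. Of the 8 paraxial mesoderm genes 7 were tested and 2 rose, the somite factors Meox1 at 0.91 and Tcf15 at 0.85. The other tested probe of Meox1 was at 0.52. Tbx6 (0.17), Msgn1 (0.16), Mesp2 (0.15), Foxc2 (0.01) and Uncx (-0.04) were not called. The sums were 13848 to 15659.7 in the mutant channel and 12212 to 12843 in the wildtype channel. Tbx6 made up most of them, at 10640 to 12404 in the mutant channel and 9828 to 10444 in the wildtype channel. Surface ectoderm had 6 of 7 tested and 2 higher, the keratin genes Krt5 at 0.46 and Krt18 at 0.36. Trp63 (0.15), Tfap2a (0.14), Dlx5 (0.06) and Krt8 (0.04) were not called. The sums were 133015 to 144149 in the mutant and 108644 to 126008 in wildtype, and Krt18 and Krt8 made up most of them. On array 1 Krt18 was at 81380 in the mutant and 52330 in wildtype, and Krt8 at 56006 and 55349. Array 1 gave the widest Krt18 ratio, with 0.64, 0.42, 0.25 and 0.12 on arrays 1 to 4. On array 4 Krt18 was at 72961 in the mutant and 67047 in wildtype.

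All 8 markers of extraembryonic visceral endoderm fell, led by Afp at -2.04, Cubn at -1.12 and Rbp4 at -1.07, with summed signals of 31826 to 33672 in the mutant channel and 70972 to 84670 in the wildtype channel. Of 6 endothelial genes 3 fell (Kdr at -0.97, Etv2 at -0.72 and Sox18 at -0.43), with sums of 6439 to 6846 in the mutant and 9930 to 11477 in wildtype. Cdh5 (-0.23), Pecam1 (-0.05) and Tek (-0.05) were not called. The other tested probe of Tek was at -0.32 and that of Cdh5 at -0.05. All 3 tested genes of 5 for primitive erythroid cells rose, with Hbb-bh1 at 1.35, Hba-x at 1.12 and Hbb-y at 0.72 (sums of 4927 to 5472 in the mutant and 2003 to 2240.5 in wildtype), while Gata1 and Klf1 were too dim to test. The 5 gut endoderm genes had no call, and their sums were 6547 to 6910.0 in the mutant and 6381 to 6659 in wildtype. The part of these shifts in the ratios of Gbx2, Sox2 and Nkx6-1 was not tested.

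The Cdx genes gave the scale of the comparison. Cdx4, on whose sign the arrays were turned, was at -2.48 and Cdx2 (chr5:147611320-147611379, minus strand) at -0.54, with -0.77, -0.50, -0.45 and -0.45 on arrays 1 to 4. Cdx1, the third caudal gene, was at 0.40, with ratios from 0.07 on array 1 to 0.62 on array 4.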

How the data were processed

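Each array holds both genotypes. Per the submitters' processing notes, Agilent Feature Extraction 9.5.3 read the scans. The files list, for Cy3 and Cy5, the intensity of each spot and its local background, per the file headers. A deposited log10 ratio (Cy5 to Cy3) was used for the alternatives, and its p-value, also per the file headers, was not used. The authors' series table holds log10 values equal, within 1e-05, to the scanner ratio on arrays 1 and 3 and to its negative on arrays 2 and 4, with a median of 0.

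Intensities were corrected by normexp (offset 50) and loess (control spots at weight 0) in limma 3.58.1 (R 4.3.3). Control and outlier spots (103 to 167 per array) were left out and spots of 1 probe averaged. A probe was well above background where more than a share of 0.5 of its spots was, and was tested if so on all 4 arrays in at least 1 genotype channel after turning (21859 of 41174 probes). Between 58.9% and 64.9% of spots were above background in Cy5 and 50.6% to 56.4% in Cy3, and 4 arrays limit the precision. A gene was read at its brightest tested probe. Arrays of 1 labelled replicate number were averaged (n = 2), fitted with lmFit and eBayes (17.0 prior degrees of freedom beside 1 residual) and adjusted by Benjamini-Hochberg over all tested probes, with a threshold of 0.05. Probes were named through RefSeq accessions of a GRCm38.p6 table (23374 probes), a current symbol (6733) or an older symbol (2919), and 8148 kept the file's name.

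The members and lists were chosen with earlier results of these data known. The named genes are all member probes, the Cdx genes, called genes of each neural list, up to 3 by size of each marker list and the 5 nearest by profile. Other list genes are named as background to their group and were picked after their values were seen. Alternatives covered the pairing, normalisation, background, filter and left-out arrays. Some genes of the wider neural lists are counted but not reported here by name.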

Additional observations from a re-analysis of the deposited data

How the results depend on the processing

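In all turned settings the tested regulators kept a positive ratio: 0.65 to 1.12 for Gbx2, 0.42 to 0.93 for Nkx6-1, 0.47 to 0.75 for Sox2 and 0.007 to 0.378 for Sox1. With the arrays as labelled and not turned, the ratios nearly cancelled, to -0.033 for Gbx2, -0.022 for Sox1, -0.0217 for Sox2, 0.037 for Nkx6-1 and a median of -0.0218. There limma called 0 regulators and 0 other neural genes (of all genes 2 higher, 22 lower, 265 at an unadjusted p under 0.05). Median centring in place of loess called 0 regulators, 0 other neural genes and 0 of all genes (266 at an unadjusted p under 0.05). The median of the 4 was 0.70 against 0.28 over all genes. Without the filter on dim probes limma also called 0 and 0 (of all genes 10 higher, 4 lower, 3852 at an unadjusted p under 0.05). Adjusted p was 0.0848 for Gbx2, 0.0906 for Sox2 and 0.0926 for Nkx6-1, and the median of 8 genes 0.081. The causes were not tested. With 1 array left out, 1 to 3 regulators were called higher (1 without array 1) and the median was 0.46 to 0.56. Between 2 and 8 other neural genes were called (2 without array 1, 5 without array 3). Of all tested genes, 0.592% were then higher and 0.511% lower without array 1, and 1.62% and 2.85% without array 2. The shares were 1.89% and 2.14% without array 3, 2.12% and 3.17% without array 4, and 2.9% and 3.89% with all 4 arrays.

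The median of the 4 was 0.52 with only arrays 1 and 4, 0.50 with only arrays 2 and 3, 0.59 with an offset of 0, 0.59 without background correction, 0.77 with the scanner's processed signals or the series table, and 0.52 over the 3 genes above background in both channels. Other neural genes called were 25 of 50 with arrays 1 and 3 and arrays 2 and 4 paired, 31 of 50 with the remaining pairing (1 with 4, 2 with 3), 5 with only arrays 1 and 4, 5 with only arrays 2 and 3, and 28 of 49 with a dye term on 4 arrays. Of all tested genes, 1.5% were higher and 2.35% lower with only arrays 1 and 4, and 1.56% and 1.67% with only arrays 2 and 3. Many more were called with the remaining pairing, 28.9% higher and 24.2% lower, and with the dye term, 24.6% higher and 20.7% lower. On that background Sox1 was also called, with the remaining pairing (adjusted p = 0.0151) and the dye term (adjusted p = 0.0385). The planned fit with both a dye term and the labelled replicate as a random block was not run, since they coincide once the arrays are turned. The dye term alone and the replicate block alone were chosen after seeing the data. The block (consensus correlation 0.522) called the same number of regulators, 3, and 11 other neural genes. Of all tested genes it called 3.95% higher and 3.98% lower. No paired analysis was possible beyond that because each array already holds both genotypes.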
